A study of Mus musculus with 24 samples.

Results

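The genes described here are 56 mouse genes of DNA replication and the G1/S transition, of 21631 protein-coding genes on chromosomes 1 to 19 and X. They were taken as a named list and placed in 8 groups by role. Each gene was followed through the peaks of open chromatin in its gene body and 10 kb on both sides (mm10). Peaks within 1 kb of either gene end were kept apart from the others, because the gene coordinates used carried no strand. Chromatin accessibility had been measured by ATAC-seq, in which a transposase inserts sequencing adapters into DNA that is not covered by nucleosomes.

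The libraries came from B-cell progenitors sorted from bone marrow. The 6 groups were Mki67-/- and WT pre-pro-B cells, Mki67-/- and WT pro-B cells, and Mki67-/- and WT small pre-B cells, with 4 libraries in each group and 24 in all. Ki-67, the product of Mki67, is found in the nuclei of cycling cells and coats mitotic chromosomes. The labels give neither the deleted part of the gene nor the strain, age or sex of the mice, and they do not say whether the 4 libraries of a group came from separate mice. The p-values below therefore measure the spread between libraries, which may be technical. Mki67 had a gene-end peak in all 24 libraries, which does not check the genotype, since a peak can remain outside a deleted stretch. In the window of Mki67 there were 4, 2, 3 and 2 peaks in Mki67-/- pro-B libraries and 3, 3, 3 and 2 in WT pro-B libraries.

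Replication origins are licensed in G1, when the origin recognition complex, Cdc6 and Cdt1 load the Mcm2 to Mcm7 helicase onto DNA, a step that geminin (Gmnn) blocks later in the cycle. At the start of S phase Cdc45 and the GINS complex join the helicase, and polymerases alpha, delta and epsilon copy the strands with the sliding clamp Pcna and its loader, the Rfc complex. Many of these genes are targets of E2F transcription factors, which the pocket proteins Rb1 and Rbl1 restrain until cyclin E and Cdk2 act. In B lymphopoiesis, pro-B cells divide under interleukin 7, and small pre-B cells are resting cells that rearrange their light chain genes.

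RefSeq promoters, each running from 250 bases before to 50 bases after a transcription start on GRCm38.p6, the assembly behind mm10, were found for 45 of the 56 genes in 55 windows. An E2F motif (TTTCCCGC, TTTCGCGC, TTTGCCGC or TTTGGCGC on either strand) stood in 20 of the 55 windows, 1 window in each of 20 genes. That is 36.4% of the windows, against 2.88% of the 21045 promoter windows of all genes and 4.83% of the 9842 windows that were open in all 24 libraries. The CCAAT motif stood in 63.6% of the genes' windows, in 38.5% of all windows and in 39.7% of those open in all 24 libraries. GGGCGG stood in 72.7%, 46.7% and 69.9% of them, so its share was close to that of other open promoters. The 20 genes were Cdc25a, Cdc6, Cdk2, Cdt1, Dnmt1, E2f2, E2f3, E2f7, Gins3, Lig1, Mcm3, Mcm5, Mcm6, Mcm7, Orc1, Pola1, Pold1, Rbl1, Rfc3 and Uhrf1. A match describes the letters of the window and does not show that a factor bound there.

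The promoters of 7 genes are printed, each 5′ to 3′ on the strand of its gene, with E2F motifs in capitals. They are those of Mcm6, the helicase subunit with the most matches, and of genes whose promoter peak moved between stages or held its place. The last, of the thymidylate synthase gene Tyms, holds no E2F motif, and its peak was absent from the 40000 strongest in 7 of 8 small pre-B libraries. In Mcm6 the first capital run is a pair of matches on opposite strands that share bases. The windows are Mcm6 at chr1:128359656-128359955 (minus strand), Cdt1 at chr8:122567765-122568064 (plus strand), Rfc3 at chr5:151651159-151651458 (minus strand), Dnmt1 at chr9:20952574-20952873 (minus strand), Pold1 at chr7:44548766-44549065 (minus strand), E2f3 at chr13:29986014-29986313 (minus strand) and Tyms at chr5:30073576-30073875 (minus strand).
Mcm6: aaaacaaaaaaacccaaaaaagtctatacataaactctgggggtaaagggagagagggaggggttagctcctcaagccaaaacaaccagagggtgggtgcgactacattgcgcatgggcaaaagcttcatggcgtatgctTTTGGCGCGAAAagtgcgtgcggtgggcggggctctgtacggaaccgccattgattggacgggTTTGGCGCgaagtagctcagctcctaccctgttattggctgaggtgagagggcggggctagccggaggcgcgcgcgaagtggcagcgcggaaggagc
Cdt1: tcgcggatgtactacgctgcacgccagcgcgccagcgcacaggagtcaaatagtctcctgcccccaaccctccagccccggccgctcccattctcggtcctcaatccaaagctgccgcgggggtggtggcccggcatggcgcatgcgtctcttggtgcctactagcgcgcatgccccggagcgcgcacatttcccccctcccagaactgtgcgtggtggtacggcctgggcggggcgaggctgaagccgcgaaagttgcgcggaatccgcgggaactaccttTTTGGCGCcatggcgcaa
Rfc3: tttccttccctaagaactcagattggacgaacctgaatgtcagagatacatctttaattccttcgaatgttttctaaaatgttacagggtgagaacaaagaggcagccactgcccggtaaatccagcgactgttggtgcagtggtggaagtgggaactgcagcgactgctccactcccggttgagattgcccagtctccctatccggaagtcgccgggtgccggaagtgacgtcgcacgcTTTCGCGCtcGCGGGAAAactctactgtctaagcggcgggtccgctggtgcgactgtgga
Dnmt1: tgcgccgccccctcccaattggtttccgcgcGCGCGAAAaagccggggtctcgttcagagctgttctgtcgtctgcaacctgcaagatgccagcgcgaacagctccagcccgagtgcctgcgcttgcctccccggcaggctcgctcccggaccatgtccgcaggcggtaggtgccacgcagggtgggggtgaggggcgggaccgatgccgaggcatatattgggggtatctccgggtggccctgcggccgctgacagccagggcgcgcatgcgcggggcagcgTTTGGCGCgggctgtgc
Pold1: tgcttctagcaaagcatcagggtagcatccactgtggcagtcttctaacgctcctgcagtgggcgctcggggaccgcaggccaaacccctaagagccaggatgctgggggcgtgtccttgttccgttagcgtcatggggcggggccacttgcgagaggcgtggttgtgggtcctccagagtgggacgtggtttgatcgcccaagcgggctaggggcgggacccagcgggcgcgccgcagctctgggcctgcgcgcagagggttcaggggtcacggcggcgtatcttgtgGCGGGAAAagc
E2f3: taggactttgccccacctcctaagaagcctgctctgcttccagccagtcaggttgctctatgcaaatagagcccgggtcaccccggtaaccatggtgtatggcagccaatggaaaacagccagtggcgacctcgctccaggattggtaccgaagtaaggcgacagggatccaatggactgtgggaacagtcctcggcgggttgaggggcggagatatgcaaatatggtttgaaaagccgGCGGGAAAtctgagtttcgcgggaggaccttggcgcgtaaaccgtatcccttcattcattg
Tyms: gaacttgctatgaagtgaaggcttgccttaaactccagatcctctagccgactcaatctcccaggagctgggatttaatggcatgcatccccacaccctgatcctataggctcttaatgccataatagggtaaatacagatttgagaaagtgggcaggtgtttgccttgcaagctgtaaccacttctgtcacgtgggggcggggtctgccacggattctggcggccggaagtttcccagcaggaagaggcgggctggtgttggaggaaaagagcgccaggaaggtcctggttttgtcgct

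Every one of the 56 genes had a peak in its window in all 24 libraries. The same held for 84.94% of the 17598 genes with a peak in at least 4 libraries. A gene-end peak stood in all 24 libraries for 51 of the 56 genes, or 91.07%, against 77.48% of the 14384 genes with a gene-end peak in at least 4 libraries. In the deposited lists the genes had a median of 3.917 peaks per library, of which a median of 1.208 lay at gene ends and 2.583 elsewhere. The medians over all genes tested were 3.333, 1.125 and 2.417.

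The 5 exceptions were Orc1, the largest subunit of the origin recognition complex, Rfc1, the large subunit of the clamp loader, Dnmt1, the maintenance DNA methyltransferase, Lig1, the ligase that seals Okazaki fragments, and Tk1, thymidine kinase. Orc1 and Rfc1 had no gene-end peak in any library, Dnmt1 had one in 1 library, Lig1 in 2 and Tk1 in 13. For 4 of them a RefSeq start lay inside the annotated gene, at 3749 bp from the nearer gene end in Orc1, 2978 bp in Rfc1, 6909 bp in Dnmt1 and 1651 bp in Lig1. A peak stood on each of those 4 starts in all 24 libraries. The start of Tk1 carried a peak in 12 libraries, in none of them among the 40000 strongest peaks.

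Over the matched genes, 42 of 45, or 93.3%, had a promoter peak in all 24 libraries, against 49.5% of 17274 genes with a promoter window. Among the 40000 strongest peaks of each library it was 40 of 45, or 88.9%, against 44.8%. Promoter peaks present in all 24 libraries were also placed within each list, with the strongest peak by −log10 q at the top. Their median position was at 6.43% of the list for the 56 genes and at 9.63% for all promoters open in all 24 libraries. The most peaks per library were found at Prim2, a primase subunit, with a mean of 12.67, at the pocket protein gene Rb1 with 12.38 and at Pold1, the catalytic subunit of polymerase delta, with 10.21. The fewest were found at Gmnn with 1.0, the GINS subunit gene Gins3 with 1.04 and Mcm4 with 1.17. Gmnn had 1 peak in every library, and Gins3 had 1 in all but WT pre-pro-B 1, which had 2.

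**Figure D1:**
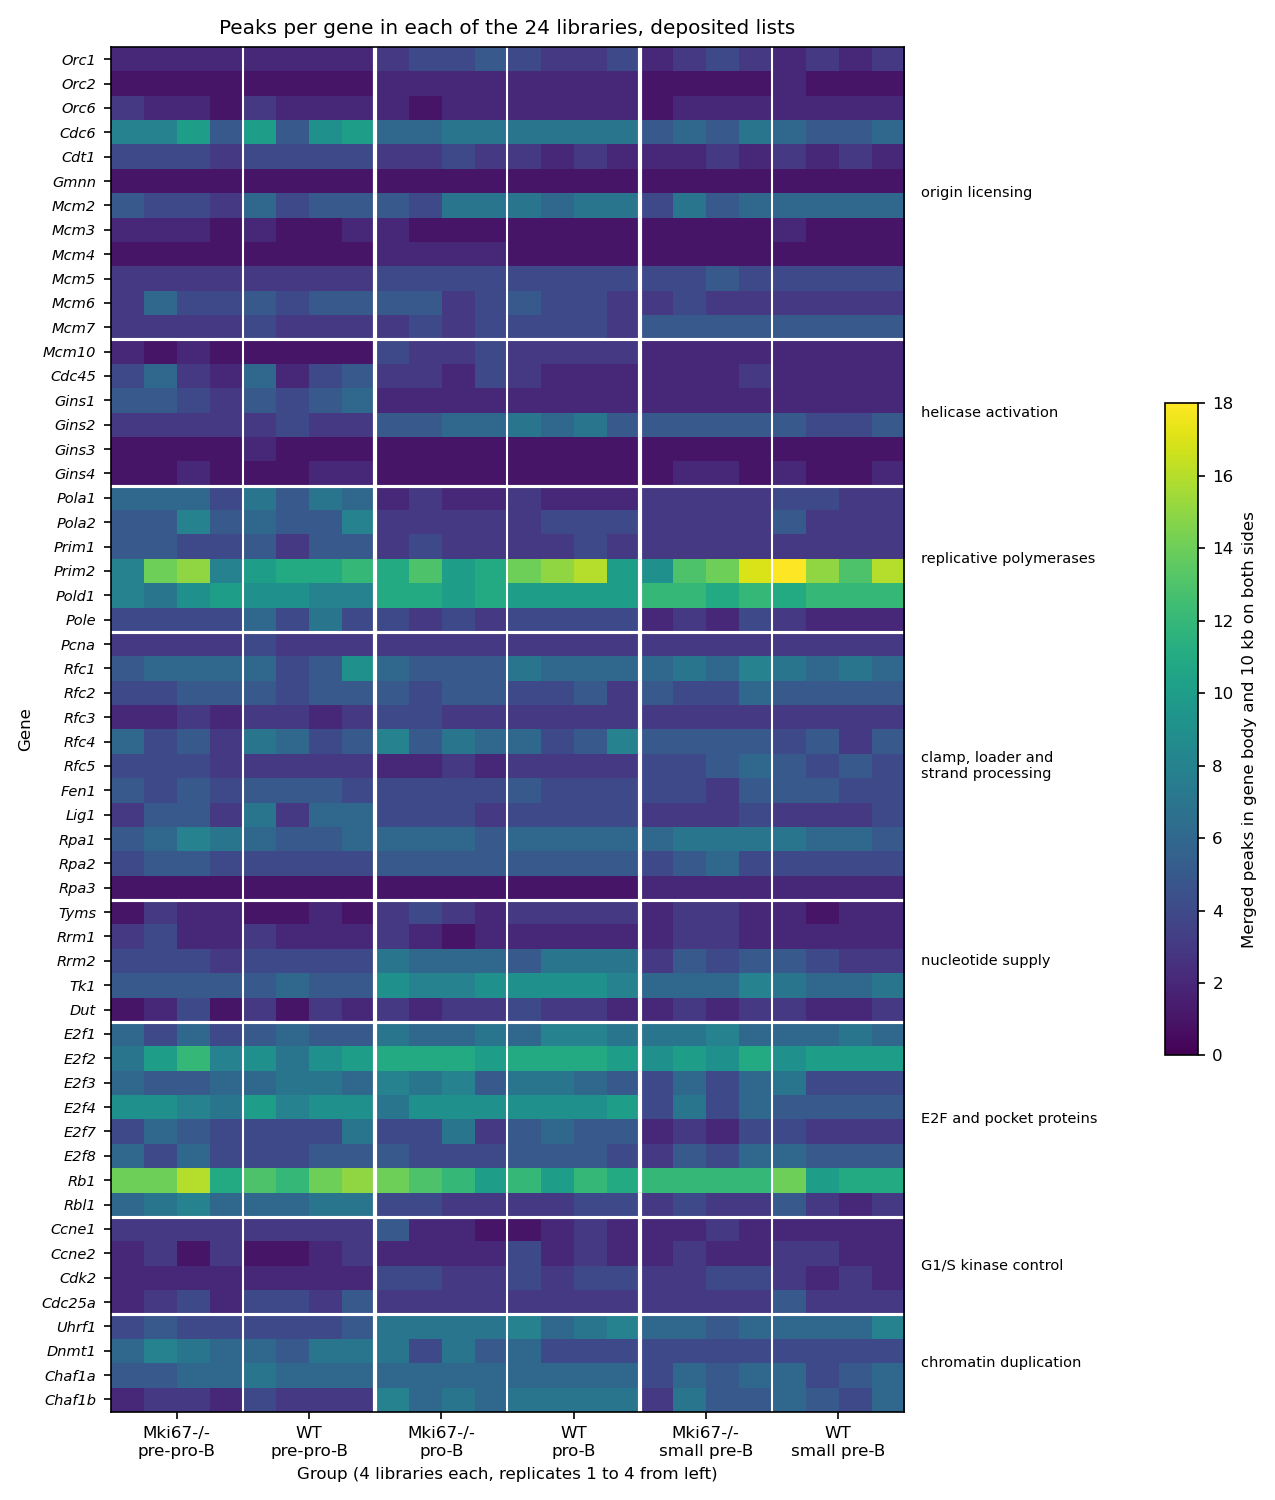
Number of peaks per gene window in the deposited lists (colour, peaks per library), for the 56 genes (rows, grouped by role) in each of the 24 libraries (columns). Prim2, Rb1 and Pold1 carry the most peaks, with means of 12.67, 12.38 and 10.21, and every gene has at least 1 peak in every library.

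The libraries held 54387 to 88946 merged peaks. Background coverage recovered from the peak lists, which stands for depth, lay between 1.86 and 5.3. Mki67-/- pre-pro-B 4 and Mki67-/- small pre-B 1 had the lowest coverage, and WT small pre-B 1 had 85621 peaks, against 63332 to 69941 in the other WT small pre-B libraries. Without these 3 libraries the counts of genes called below were 20 higher and 5 lower at pro-B against pre-pro-B, 7 and 8 at small pre-B against pro-B, and 21 and 3 at small pre-B against pre-pro-B. Peaks were widest in pre-pro-B libraries: the 40000 strongest averaged 650.1 to 889 bp there, 504.8 to 595.6 bp in pro-B and 469.6 to 542.1 bp in small pre-B libraries. The 9 B-lineage marker genes held 23 to 29 of these peaks in all in pre-pro-B, 60 to 65 in pro-B and 49 to 59 in small pre-B libraries. The 7 T and NK cell markers held 12 to 16, 5 to 8 and 4 to 5 peaks, with Cd3e, Cd8a and Ncr1 at 0 in the later stages, and the 7 myeloid markers 14 to 19, 8 to 12 and 11 to 15, with S100a8 at 0. The 5 progenitor markers held 20 to 25, 15 to 20 and 10 to 16 peaks, the 4 erythroid markers 7 to 8, 5 to 9 and 5 to 8 with Gata1 at 0, and the 4 plasmacytoid dendritic cell markers 13 to 18, 17 to 19 and 20 to 24. These markers move with stage as the gene results below do, and their part in those results was not tested. In bulk libraries, fewer cells of a type with an open site and a less open site per cell cannot be told apart.

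The genotype comparison asked whether loss of Ki-67 changed the accessibility of the replication genes. It found no gene that passed the test. Summed over the 56 genes, the deposited lists held 235.75 ± 24.03 peaks in Mki67-/- pre-pro-B libraries and 245.5 ± 19.6 in WT pre-pro-B libraries (SD, n = 4 each, as below). At pro-B the sums were 250.25 ± 9.43 in Mki67-/- and 254 ± 8.91 in WT libraries, and at small pre-B 232 ± 19.8 in Mki67-/- and 230.5 ± 15.8 in WT libraries. The ranges overlapped at every stage: 206 to 261 in Mki67-/- and 218 to 261 in WT libraries at pre-pro-B, 241 to 263 and 244 to 262 at pro-B, and 206 to 251 and 218 to 253 at small pre-B.

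Gene-end peaks, summed in the same way, numbered 73 ± 2.0 in Mki67-/- and 74.5 ± 2.38 in WT libraries at pre-pro-B, 86.5 ± 3.0 and 88 ± 3.56 at pro-B, and 84.25 ± 2.63 and 78 ± 2.45 at small pre-B. At small pre-B the gene-end sums did not overlap, with 83, 84, 88 and 82 in Mki67-/- libraries and 76, 79, 81 and 76 in WT libraries. Among the 40000 strongest peaks they overlapped, with 71 to 77 in Mki67-/- libraries and 67 to 75 in WT libraries. A sum over chosen genes was given no test. Among the 40000 strongest peaks the sums were 139 ± 3.74 in Mki67-/- and 136.25 ± 3.4 in WT libraries at pre-pro-B, 166.25 ± 6.65 and 170.25 ± 4.35 at pro-B, and 175.5 ± 5.07 and 172 ± 5.6 at small pre-B. In both genotypes these sums were higher at the 2 later stages than at pre-pro-B.

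**Figure D2:**
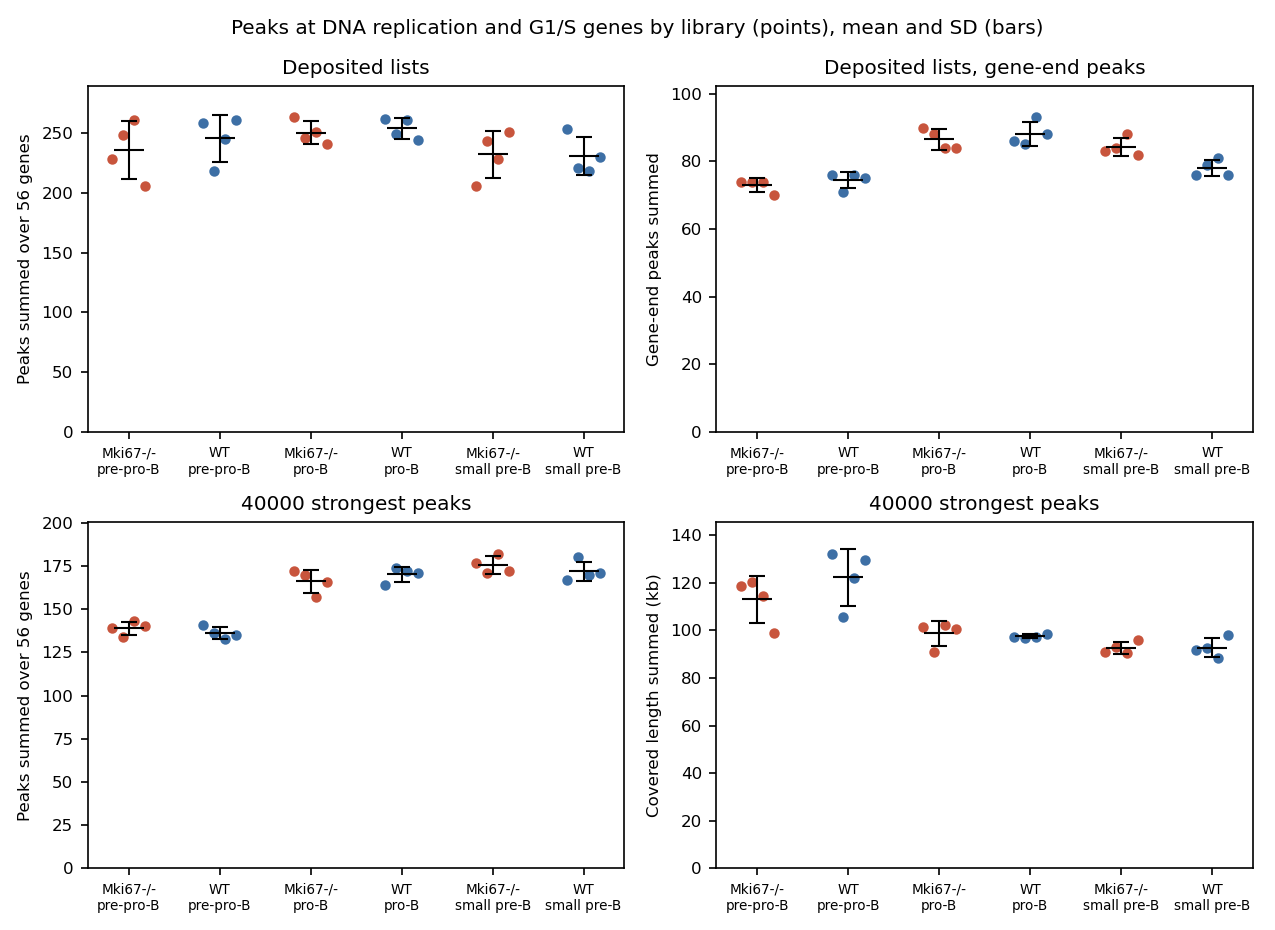
Sums over the 56 genes in each library: peaks in the deposited lists, gene-end peaks in the deposited lists, peaks among the 40000 strongest, and kb covered by the 40000 strongest (vertical axes), by stage (horizontal axis), with Mki67-/- libraries in red to the left of WT libraries in blue. Points are libraries and bars are means with SD (n = 4). The genotypes overlap in total deposited peaks at every stage, and in gene-end peaks at all but small pre-B, and the count among the 40000 strongest is lowest at pre-pro-B, where the covered length is highest.

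Across stages, 0 of 17598 genes differed in the number of peaks between Mki67-/- and WT libraries at an adjusted p under 0.05 (two-sided exact permutation test, Benjamini-Hochberg over all genes), which is 0.0%, and none of the 56 did. At an unadjusted p under 0.05, 202 genes (1.15%) were higher and 691 (3.93%) lower in Mki67-/- libraries. Of the 56, Mcm4 alone was among them. The median difference was −0.042 peaks over the 56 genes and −0.083 over all genes tested. Both medians lay slightly below 0. Mean background coverage, which stands for depth, was also lower in Mki67-/- than in WT libraries at each stage. It was 3.255 and 4.29 at pre-pro-B, 2.918 and 3.148 at pro-B, and 2.578 and 3.118 at small pre-B. The part of depth in these counts and medians was not tested.

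Mcm4, a subunit of the licensed helicase, had 2, 2, 2 and 2 peaks in Mki67-/- pro-B libraries, against 1, 1, 1 and 1 in WT pro-B libraries. It had 1 peak in each of the other 16 libraries. The second peak was 463 bp long and lay outside the gene, at chr16:15621648-15622110, and was called in all 4 Mki67-/- pro-B libraries and in none of the other 20. The groups did not overlap within pro-B, where 100 of 16846 genes (0.594%) were higher without overlap and 119 (0.706%) lower. With 4 libraries against 4 the smallest p the exact permutation test can give is 0.0286. A gene can therefore pass adjustment within a stage only if most genes tested reach that p. Across stages Mcm4 averaged 1.333 ± 0.492 peaks in Mki67-/- and 1 ± 0 in WT libraries (n = 12 each, exact permutation p = 0.0286, adjusted p = 0.889).

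The other genes nearest the threshold overlapped between genotypes. Mcm2, another helicase subunit, averaged 5.083 ± 1.379 peaks in Mki67-/- libraries and 5.917 ± 0.9 in WT libraries (exact permutation p = 0.0627). Cdc25a, the phosphatase that activates Cdk2, averaged 2.917 ± 0.515 and 3.5 ± 0.798 (exact permutation p = 0.1). Below these in the same direction came Prim2, Lig1 and Pola1, the catalytic subunit of polymerase alpha, with exact permutation p-values of 0.182, 0.202 and 0.244. In the opposite direction stood Rpa2, a subunit of the single-strand binding complex, with 4.75 ± 0.622 in Mki67-/- and 4.333 ± 0.492 in WT libraries, and Mcm10, which joins the helicase at firing, with 2.333 ± 0.985 and 2 ± 0.853 (exact permutation p = 0.0918 each). Tyms followed with 2.5 ± 0.798 and 2 ± 0.853 (exact permutation p = 0.11), and Rpa1, the large subunit of the same complex as Rpa2, with 6.333 ± 0.888 and 5.833 ± 0.577 (exact permutation p = 0.195).

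Within pre-pro-B, 31 of 16960 genes (0.183%) were higher and 88 (0.519%) lower in Mki67-/- libraries without overlap, and within small pre-B 79 of 16342 (0.483%) and 138 (0.844%). None of the 56 was among them at either stage. The differences of lowest p at these stages did not separate the genotypes. At pre-pro-B, Rfc5, a small subunit of the clamp loader, had 4, 4, 4 and 3 peaks in Mki67-/- libraries and 3, 3, 3 and 3 in WT libraries, and Lig1 averaged 4 ± 1.155 in Mki67-/- and 5.5 ± 1.732 in WT libraries. At small pre-B, Cdk2 averaged 3.5 ± 0.577 peaks in Mki67-/- and 2.5 ± 0.577 in WT libraries, and Prim2 13.25 ± 3.304 and 15.5 ± 2.082 (exact permutation p = 0.171 and 0.371). None of these 4 genes had an adjusted p under 1 there.

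Gene-end peaks gave the same outcome, with 0 of 14384 genes called (0.0%) and 118 (0.82%) higher and 164 (1.14%) lower at an unadjusted p under 0.05. Rfc2, a small subunit of the clamp loader, had 2 gene-end peaks in each Mki67-/- pro-B library and 1 in each WT pro-B library, where 28 of 13364 genes (0.21%) were higher without overlap and 26 (0.195%) lower. Over all stages Rfc2 averaged 1.417 gene-end peaks in Mki67-/- and 1 in WT libraries (exact permutation p = 0.0143), and Rrm1, the large subunit of ribonucleotide reductase, 1.417 and 1 (exact permutation p = 0.0459), each with an adjusted p of 1. For peaks away from gene ends, Mcm10 had 3, 2, 2 and 2 in Mki67-/- pro-B libraries against 1, 1, 1 and 1 in WT pro-B libraries. Across stages Mcm10 averaged 1.25 such peaks in Mki67-/- and 0.667 in WT libraries (exact permutation p = 0.00612, adjusted p = 0.667). At pro-B, 95 of 14609 genes (0.65%) were higher without overlap in peaks away from gene ends and 106 (0.726%) lower, Mcm4 and Mcm10 among the higher ones.

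No gene's genotype difference changed between stages past adjustment, with 0 of 17492 genes called between pro-B and pre-pro-B and 399 (2.28%) at an unadjusted p under 0.05. Rfc5 was among the 399: its difference was −0.75 peaks at pro-B, where Mki67-/- libraries had 2, 2, 3 and 2 peaks and WT libraries 3, 3, 3 and 3, and 0.75 at pre-pro-B (exact permutation p = 0.0102, adjusted p = 1). Mcm4 was the other, with differences of 1.0 and 0 (exact permutation p = 0.0286, adjusted p = 1).

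Single regions were also compared by genotype across stages. Of 73251 regions, 0 were called (0.0%) and 1978 (2.7%) had an unadjusted p under 0.05, among them 3 of the 161 regions of the 56 genes that could be tested. They were the Mcm4 region above, a gene-end region of the E2F family member E2f8 (chr7:48881881-48882792) open in 5 of the 12 Mki67-/- and 10 of the 12 WT libraries, and a region of Mcm2 (chr6:88879566-88879824), likewise in 5 of 12 and 10 of 12. Their exact permutation p-values were 0.0286, 0.0306 and 0.0459, and each adjusted p was 1. Promoter rank, described below, gave 17 of 9647 promoters (0.176%) higher and 3 (0.0311%) lower in the list in Mki67-/- libraries, and none of the 44 promoters of these genes that were tested.

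Between stages, many of the same genes passed the test. Among the 40000 strongest peaks, 19 of the 56 genes had more and 5 had fewer peaks at pro-B than at pre-pro-B (two-sided exact permutation test, stage permuted within genotype, adjusted p under 0.05 over all genes tested). The background was high: 24.8% of 16218 genes were higher and 21.1% lower. Small pre-B libraries had more peaks than pro-B libraries at 7 genes and fewer at 9, with 11.4% of 15744 genes higher and 11.9% lower. Against pre-pro-B, small pre-B libraries had more peaks at 21 genes and fewer at 4, with 24.2% of 16051 genes higher and 21% lower. The median difference over the 56 genes was 0.188, 0.0 and 0.188 peaks in the 3 comparisons, and over all genes tested it was 0.0 in each.

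The measure of openness turned these counts round. In base pairs covered by the 40000 strongest peaks, 6 of the 56 genes were higher and 33 lower at pro-B than at pre-pro-B, 5 and 18 at small pre-B against pro-B, and 4 and 40 at small pre-B against pre-pro-B. By the same measure 12757 of 16218, 6867 of 15744 and 13187 of 16051 genes tested were called in either direction, so such calls were common over all genes. Summed over the 56 genes, the covered length was 112999.5 bp in Mki67-/- and 122184 bp in WT pre-pro-B libraries, 98793 and 97458 bp at pro-B, and 92584 and 92689 bp at small pre-B. In the windows of these genes, pre-pro-B peaks were fewer and wider among the 40000 strongest. The whole deposited lists held the most merged peaks at pre-pro-B. WT libraries averaged 84681.75 at pre-pro-B, 74698 at pro-B and 70569.25 at small pre-B, and Mki67-/- libraries 80504.25, 74483.5 and 65297.5. A gain in peak number can also be a wide peak that splits. The Mcm7 starts shared a peak at pre-pro-B (median width 1610.5 bp) and had separate peaks at small pre-B (616.5 and 409.5 bp). A pair of Lig1 starts shared a peak at pre-pro-B (1060.5 bp) and had separate peaks at pro-B (636.5 and 228 bp). How many of the gains below were such splits was not tested. As the measures differed, a gene is described first by peaks. Genes whose direction and call were the same by peak number, by covered length and in the deposited lists are named as such. At pro-B against pre-pro-B these were Uhrf1, Gins2 and Chaf1b, higher, and Rbl1, Cdt1 and Prim1, lower.

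In the licensing group of 12 genes, 2 were higher (Orc1 and Cdc6) and 1 lower (Cdt1) at pro-B than at pre-pro-B. The mean covered length of Orc1 and Cdc6 was lower at pro-B. Cdt1, the loader that Gmnn inhibits, had 2 peaks among the 40000 strongest in each of the 16 pro-B and small pre-B libraries and 3 in each of the 8 pre-pro-B libraries. The difference was called at both later stages against pre-pro-B (exact permutation p = 0.000408, the smallest 8 against 8 libraries can give, adjusted p = 0.00164 at pro-B). Cdc6, the ATPase that loads the helicase with Cdt1, had a lowest, median and highest value of 2, 3 and 3 peaks at pre-pro-B, 3, 4 and 4 at pro-B and 5, 5 and 5 at small pre-B. In the deposited lists the order was the opposite, with medians of 8.5, 7 and 5.5 peaks at Cdc6, so the gain was not seen when weaker peaks were counted.

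In the step to small pre-B the licensing genes Cdc6, Mcm2 and Mcm7 were higher and Orc1 lower. The helicase gene Mcm7 had 5 peaks in each small pre-B library, against 3, 4 and 4 (lowest, median, highest) at pro-B, without overlap (adjusted p = 0.00467). Mcm2 had 4, 4 and 5 at small pre-B and 3, 3 and 4 at pro-B (adjusted p = 0.0129), which overlapped at 4. The sign turned for Mcm7 by covered length and for Mcm2 in the deposited lists. Orc1 averaged 2 peaks at small pre-B and 2.875 at pro-B (adjusted p = 0.0129). Mcm5 and Mcm6 joined Cdc6, Mcm2 and Mcm7 as higher at small pre-B than at pre-pro-B. Gmnn and Mcm4 had 1 peak among the 40000 strongest in every library of every stage.

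Among the 6 helicase activation genes, Gins2, a GINS subunit, was higher and Cdc45 lower at pro-B. The gene Gse1 overlaps Gins2, and the gene Ufd1 overlaps Cdc45, so the peaks counted can belong to either gene of a pair. Gins2 had 1, 2 and 2 peaks (lowest, median, highest) at pre-pro-B, 3, 4 and 4 at pro-B and 3, 3 and 4 at small pre-B. Its covered length did not overlap either, with 2097 to 2433 bp at pro-B and 848 to 1617 bp at pre-pro-B. Gins2 was lower at small pre-B than at pro-B, with means of 3.125 and 3.875 peaks (adjusted p = 0.0439), though its covered length was higher. Cdc45 averaged 1.25 peaks at pro-B and 2.125 at pre-pro-B (adjusted p = 0.0154). Mcm10 and Gins2 were higher at small pre-B than at pre-pro-B, and Gins3 and Gins4 had 1 peak among the 40000 strongest in every library.

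Of the 6 polymerase genes, Prim2 and Pold1 were higher and Prim1 lower at pro-B. Prim2 went through 3, 4 and 6 peaks (lowest, median, highest) at pre-pro-B, 7, 7.5 and 8 at pro-B and 9, 9 and 11 at small pre-B, with no overlap between successive stages. Pold1 had 5, 5.5 and 8 at pre-pro-B, 8, 10 and 10 at pro-B and 10, 11.5 and 12 at small pre-B, touching at 8 and at 10, but its covered length was lower at small pre-B than at pro-B. Prim1, the catalytic primase subunit that pairs with Prim2, ran the other way, with 2.125 peaks on average at pro-B and 3 at pre-pro-B (adjusted p = 0.00587) and a covered length of 978 to 1609 bp against 2154 to 2987 bp. Pole, the leading-strand polymerase, had 2 peaks in each small pre-B library and 3 in each pro-B library (adjusted p = 0.00467). Pola1 averaged 2.875 peaks at small pre-B and 2 at pro-B (adjusted p = 0.0129).

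Among the 11 genes of the clamp, its loader and strand processing, Rfc3, Fen1, Lig1 and Rpa1 were higher and Rfc1 lower at pro-B, and none passed the test at small pre-B against pro-B. Rpa1 had 3 peaks in each pre-pro-B library, 4, 5 and 5 (lowest, median, highest) at pro-B and 5, 5.5 and 6 at small pre-B. Rfc3, a small subunit of the clamp loader, averaged 3 peaks at pro-B and 1.5 at pre-pro-B, and Lig1 3 and 2 (adjusted p = 0.00164 each). Rfc1 averaged 2.5 ± 0.756 peaks at pro-B and 4 ± 0 at pre-pro-B (n = 8 each, exact permutation, adjusted p = 0.00587). Pcna had 3 peaks in all 24 libraries. Fen1, the flap endonuclease of Okazaki fragments, averaged 3.375 peaks at pro-B and 1.625 at pre-pro-B among the 40000 strongest. It averaged 0.5 fewer at pro-B in the deposited lists, where Lig1, Rpa1 and Dnmt1 also turned sign. The covered length of Lig1 was lower at pro-B too, at 1246 to 1506 bp against 1694 to 2156 bp at pre-pro-B.

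In nucleotide supply, Tyms, Rrm2 and Tk1 were higher at pro-B than at pre-pro-B, and Tyms and Rrm2 lower at small pre-B than at pro-B. The mean covered length of Rrm2 and Tk1 was lower at pro-B than at pre-pro-B. Tyms, which makes thymidylate, had 0, 1 and 1 peaks (lowest, median, highest) at pre-pro-B, 1, 2 and 3 at pro-B and 0, 0.5 and 1 at small pre-B (adjusted p = 0.00553 and 0.00467). Rrm2, the S-phase subunit of ribonucleotide reductase, had 2, 2 and 3 at pre-pro-B, 3, 3.5 and 4 at pro-B and 1, 2 and 3 at small pre-B (adjusted p = 0.0131 and 0.00831). Its fall at small pre-B was also called by covered length and in the deposited lists, as were those of Chaf1b and Pole. Dut, which clears dUTP, averaged 1.75 peaks at small pre-B and 1 at pro-B (adjusted p = 0.0439), with the opposite sign in the deposited lists.

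Of the 8 E2F and pocket protein genes, E2f1, E2f2 and E2f8 were higher and Rbl1 lower at pro-B. Rbl1, which encodes p107, had 4, 4.5 and 5 peaks (lowest, median, highest) at pre-pro-B, 1, 2 and 3 at pro-B and 2, 2 and 3 at small pre-B. Its covered length was 2728 to 3586 bp, 1051 to 1301 bp and 1038 to 1320 bp in the same order. The activator E2f1 had 3, 3.5 and 4 peaks at pre-pro-B, 5, 6 and 7 at pro-B and 6, 6 and 8 at small pre-B, although its covered length had a mean difference of −321.125 bp at pro-B against pre-pro-B. E2f2, another activator, had 4, 5 and 6 peaks at pre-pro-B, 6, 8 and 9 at pro-B and 7, 8 and 8 at small pre-B. Its mean covered length was lower at both later stages than at pre-pro-B. In these 3 genes pre-pro-B libraries stood apart from the later ones or touched them at 1 value.

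None of the 4 kinase control genes, Ccne1, Ccne2, Cdk2 and Cdc25a, passed the test between any 2 stages. All 4 chromatin duplication genes were higher at pro-B than at pre-pro-B, and 3 of them were lower again at small pre-B. Uhrf1, which brings Dnmt1 to newly copied DNA, had 2, 3 and 3 peaks (lowest, median, highest) at pre-pro-B, 6 in each pro-B library and 4, 5 and 5 at small pre-B (adjusted p = 0.00164 and 0.00467 for successive stages). Its covered length was 1773 to 2717 bp, 3534 to 3793 bp and 2731 to 3477 bp, with no overlap between successive stages. Chaf1b, a subunit of the histone chaperone that follows the fork, had 1, 1.5 and 2 peaks at pre-pro-B, 3, 3.5 and 4 at pro-B and 1, 2 and 3 at small pre-B. Its partner Chaf1a had 3, 4 and 5 peaks at pre-pro-B, 5 in each pro-B library and 4 in each small pre-B library. Dnmt1 averaged 4 peaks at pro-B and 3 at pre-pro-B, but its covered length and its count in the deposited lists ran the other way.

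Gene-end peaks changed in fewer genes than peaks elsewhere. At pro-B against pre-pro-B, gene-end peaks rose at 6 of 51 genes (Cdc6, Mcm5, Rfc3, Fen1, Rpa1 and Rpa2) and fell at 0, against a background of 10.8% and 6.18%. Peaks away from gene ends rose at 16 of 42 and fell at 5, against 26.0% and 25.0%. In the step from pro-B to small pre-B, gene-end peaks rose at Mcm7 and Pold1 and fell at Tyms and E2f4, a repressor E2F (2.35% and 3.29% of all genes), and peaks elsewhere rose at 5 of 45 and fell at 8 (14.2% and 14.8%). Small pre-B set against pre-pro-B gave 9 genes higher and 1 lower for gene-end peaks (10.6% and 6.51%) and 18 and 6 of 43 elsewhere (25.1% and 24.1%). The rule of 1 kb around gene ends bears on the first of these: with 500 bp it was 3 genes and with 2 kb 10.

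Peaks of all libraries that overlapped were joined to 159336 regions in the deposited lists, 402 of them in the windows of the 56 genes. A peak was present in all 24 libraries in 61 of the 92 gene-end regions (66.3%) and in 57 of the 310 others (18.4%), against 16.8% of all regions. That last share pools gene-end and other regions, so it is no background for gene-end regions alone. The share over the gene-end regions of all genes was not taken. Among the 40000 strongest peaks there were 237 such regions of 77057. Of those that could be tested, 33 of 70 were more often open and 19 less often at pro-B than at pre-pro-B (39.5% and 44.0% of all regions tested). Small pre-B against pro-B gave 21 and 16 of 51 (30.4% and 39.6%), and at small pre-B against pre-pro-B 40 and 19 of 74 (36.4% and 45.2%).

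Some regions had a peak in all 8 libraries of a stage and in none of another, and these were chosen for description after their values were seen. Regions with such a peak at pre-pro-B alone made up 9 of the 237 (3.8%), against 8.05% of all regions, and 5 of them kept the pattern in the deposited lists. These 5 lay inside Cdc45 (chr16:18788480-18789541), inside Rb1 at 46.2 kb from the nearer gene end (chr14:73279318-73280139), inside Rbl1 at 17.1 kb (chr2:157186847-157187978), inside Rfc1 (chr5:65308763-65309418) and 3.2 kb outside Cdt1 (chr8:122564461-122565219). Cdc45, Rbl1, Rfc1 and Cdt1 were also 4 of the 5 genes with fewer peaks at pro-B than at pre-pro-B. Both come from the same lists, and a region lost after pre-pro-B lowers the count of its gene. The overlap is therefore no separate result.

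Regions shared by pro-B and small pre-B but absent at pre-pro-B numbered 16 in 12 genes (6.75%, against 4.4% of all regions), and 9 kept the pattern in the deposited lists. They lay 4.6 kb outside E2f1 (chr2:154574258-154574749), 8.4 kb inside E2f2 (chr4:136180418-136180865), at gene ends of Rpa1 (chr11:75300839-75301742) and Rpa2 (chr4:132778523-132779151), and 9.8 kb outside Uhrf1 (chr17:56293265-56293876), where the end of the gene Arrdc5 also lies. A pair lay inside Prim2 (chr1:33551309-33552183 and chr1:33595413-33596636), and another at Pold1, of which one was inside the gene (chr7:44536248-44536769) and one at a gene end (chr7:44547118-44548256).

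Regions present at pro-B alone numbered 6 (2.53%, against 2.16% of all), and the one that kept the pattern in the deposited lists lay 6.9 kb outside Uhrf1 (chr17:56296276-56296547). Regions present at small pre-B alone also numbered 6 (2.53%, against 1.52%), and 3 kept it. These were 7.1 kb inside Prim2 (chr1:33460779-33461073), 3.0 kb outside Pold1 (chr7:44529612-44529892) and at the gene end of Pold1 that it shares with Spib (chr7:44532977-44533328). Spib encodes a transcription factor of B and plasmacytoid dendritic cells, so the windows of Pold1 hold sites of more than 1 gene. A single region, at a gene end of E2f4 next to Elmo3 (chr8:105304428-105305265), was present at pre-pro-B and pro-B but not at small pre-B among the 40000 strongest (0.422%, against 0.483%), and 2 small pre-B libraries held it in the deposited lists. No region of these genes was present at pre-pro-B and small pre-B alone, a pattern of 0.868% of all regions.

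**Figure D3:**
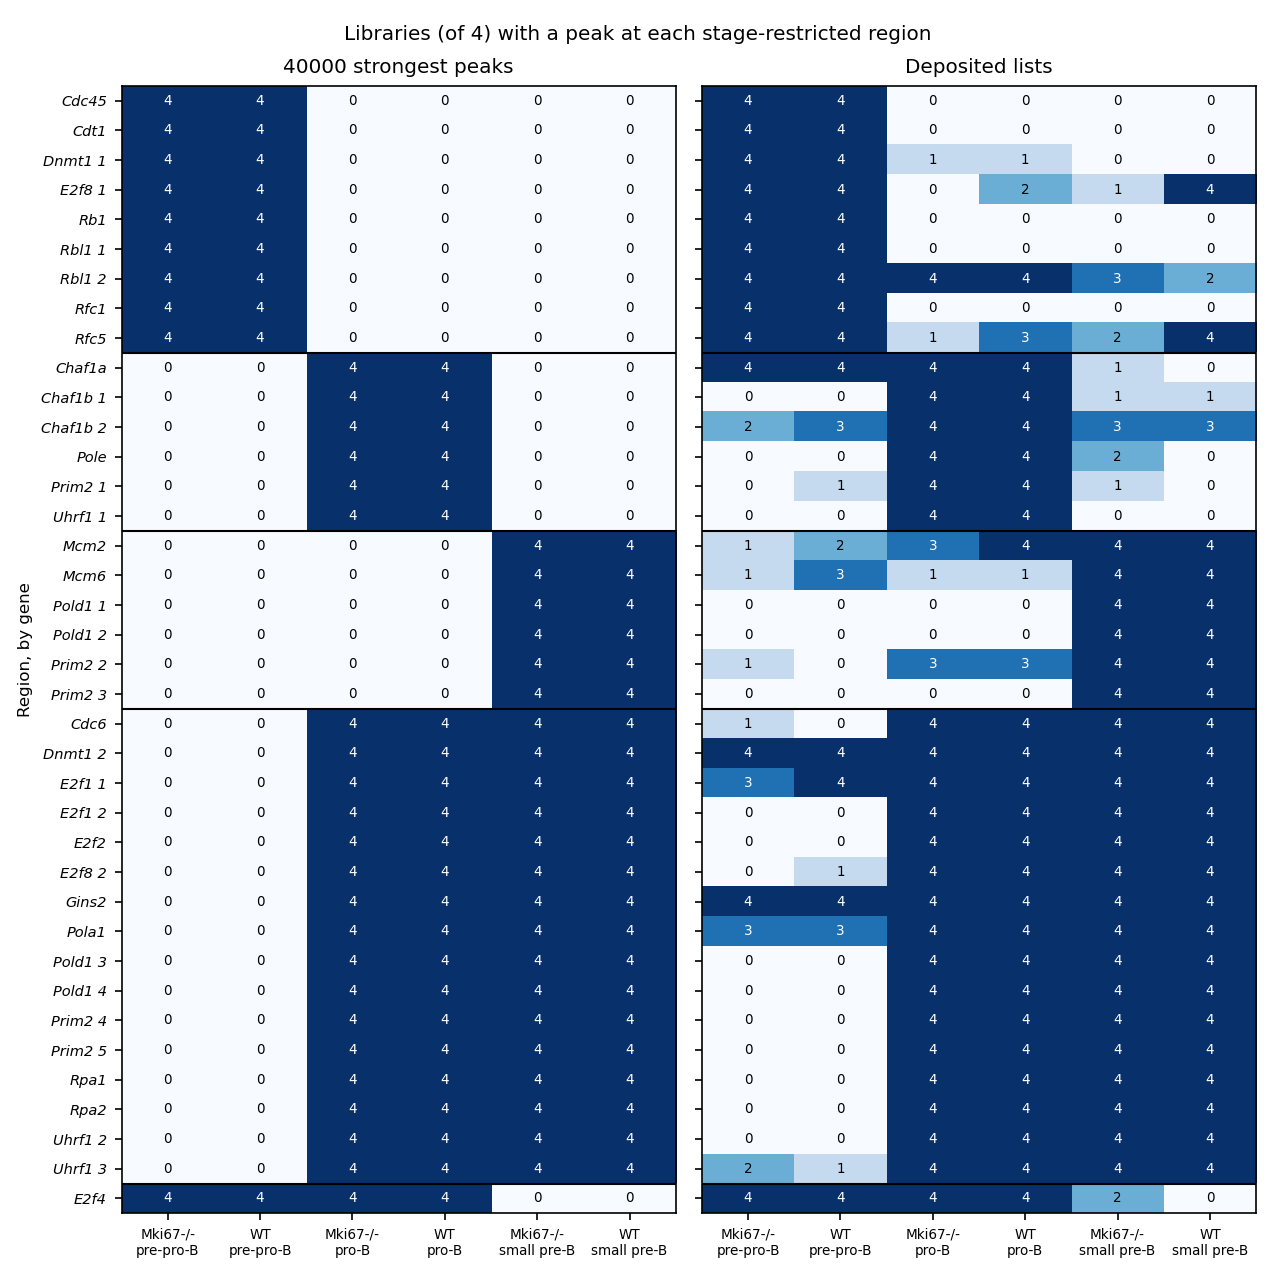
Regions in the windows of the 56 genes with a peak in all 8 libraries of at least 1 stage and in no library of another among the 40000 strongest peaks (rows, numbered within each gene), by group (columns). Colour gives the number of the 4 libraries with a peak, among the 40000 strongest on the left and in the deposited lists on the right. By the choice of regions both genotypes share the pattern on the left, and 18 of the 38 regions keep it in the deposited lists on the right.

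The position of the promoter peak within each library's list was compared next, a measure of relative strength that counts no peaks and adds up no lengths. Rank 1 is the strongest of the 40000 peaks and a library with no promoter peak among them was given the rank after the last. The rank is that of the strongest peak touching the window, so a wide peak that splits can change it. A promoter was called only where the rank by −log10 q and the rank by fold enrichment both passed in the same direction (exact permutation, adjusted over all promoters), a rule chosen after seeing that the rankings disagree for many promoters. At pro-B against pre-pro-B 6 of 44 promoters stood higher in the list (24.9% of all promoters) and 7 lower (24.8%). Small pre-B against pro-B gave 3 (18.4%) and 2 (11.4%), and at small pre-B against pre-pro-B 7 (26.6%) and 14 (23.1%).

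At pro-B against pre-pro-B, E2f3 and Cdt1 moved up the list most by −log10 q. Both have an E2F motif in the window printed above. Rfc3, Lig1 and the Dnmt1 window printed above have one too, and their peaks moved down. The promoter of E2f3, an activator E2F, stood at ranks 1308, 2262.5 and 5874 (lowest, median, highest) at pre-pro-B, at 70, 132 and 240 at pro-B and at 402, 656.5 and 884 at small pre-B. Cdt1 stood at 8443, 10564.5 and 13455 at pre-pro-B, at 1264, 1584.5 and 2602 at pro-B and at 1838, 2650.5 and 3181 at small pre-B. Neither promoter's pre-pro-B ranks overlapped those of a later stage. On the log2 scale the mean rank at pro-B minus pre-pro-B was −4.28 for E2f3 and −2.67 for Cdt1. Thus the promoter peak of Cdt1 was stronger at the stages where the gene had 1 peak fewer in its window. The other 4 that stood higher at pro-B were those of Pcna, Dut, Rrm1 and an internal start of E2f2, and their windows held no E2F motif. That E2f2 start had no peak at pre-pro-B and stood at 3750, 4979 and 7001 at small pre-B. Between these stages it moved up more than E2f3 or Cdt1 on the log2 scale. Pcna stood at 883, 1822.5 and 3022 at pre-pro-B, at 298, 372 and 454 at pro-B and at 272, 507.5 and 655 at small pre-B.

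The 7 promoters that stood lower at pro-B than at pre-pro-B were those of Orc6, Dnmt1, Fen1, Rpa2, Lig1, Rfc3 and Rfc4. Orc6, a subunit of the origin recognition complex, stood at ranks 241, 431 and 1092 (lowest, median, highest) at pre-pro-B, at 2941, 3887 and 4649 at pro-B and at 2374, 3443.5 and 4547 at small pre-B. Fen1 stood at 537, 1214.5 and 3017 at pre-pro-B, at 8200, 8913 and 9707 at pro-B and at 9223, 11390.5 and 12936 at small pre-B. The Dnmt1 start printed above shared its peak with a second start, and that peak stood at 261, 453 and 2041, then at 1724, 3889 and 6053, and then at 3225, 5005.5 and 6708. Of the 7, Orc6, Fen1, Rpa2 and Rfc3 did not overlap between pre-pro-B and either later stage, while Dnmt1 and Lig1 overlapped between pro-B and pre-pro-B and Rfc4 between small pre-B and pre-pro-B. Of the 7, 5 belong to the clamp and strand-processing group, to which Pcna, which stood higher, also belongs. A shift of that group as a whole was not tested.

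Between pro-B and small pre-B the promoters of E2f2, Rfc3 and Pold1 moved higher in the list and those of Tyms and Prim1 lower. Tyms stood at 27647, 29721 and absent (lowest, median, highest) at pre-pro-B and at 18617, 22772.5 and 24691 at pro-B, and at small pre-B its promoter peak was among the 40000 strongest in 1 of 8 libraries. The gene-end region around it (chr5:30072750-30073975) was open in 8 of 8 libraries at each stage in the deposited lists. The promoter window itself, which is narrower, held a peak in 7 of 8 small pre-B libraries when weaker peaks were counted. Prim1 stood at 12959, 17152.5 and 24264 at pre-pro-B, at 16563, 19548.5 and 26027 at pro-B and at 23269, 31822.5 and absent at small pre-B. The promoter of E2f1 had median ranks of 4232, 1901 and 32045 in the 3 stages, on peaks with median widths of 1249, 809 and 317 bp. Its pro-B libraries were split: WT pro-B 4 stood at 31869, Mki67-/- pro-B 2 at 33934 and WT pro-B 3 was absent, while the others stood at 1166 to 2226. At small pre-B it stood at 24480 to absent. Whether the ranks followed the same peak in each library, or a wide peak that had split, was not tested. The fall of E2f1 at small pre-B against pro-B passed by −log10 q (exact permutation, adjusted p = 0.0467) and missed by fold enrichment (adjusted p = 0.052). Mcm6, with 3 E2F motif matches, was not called between pro-B and pre-pro-B, with medians of 2813.5 at pro-B and 2770 at pre-pro-B.

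**Figure D4:**
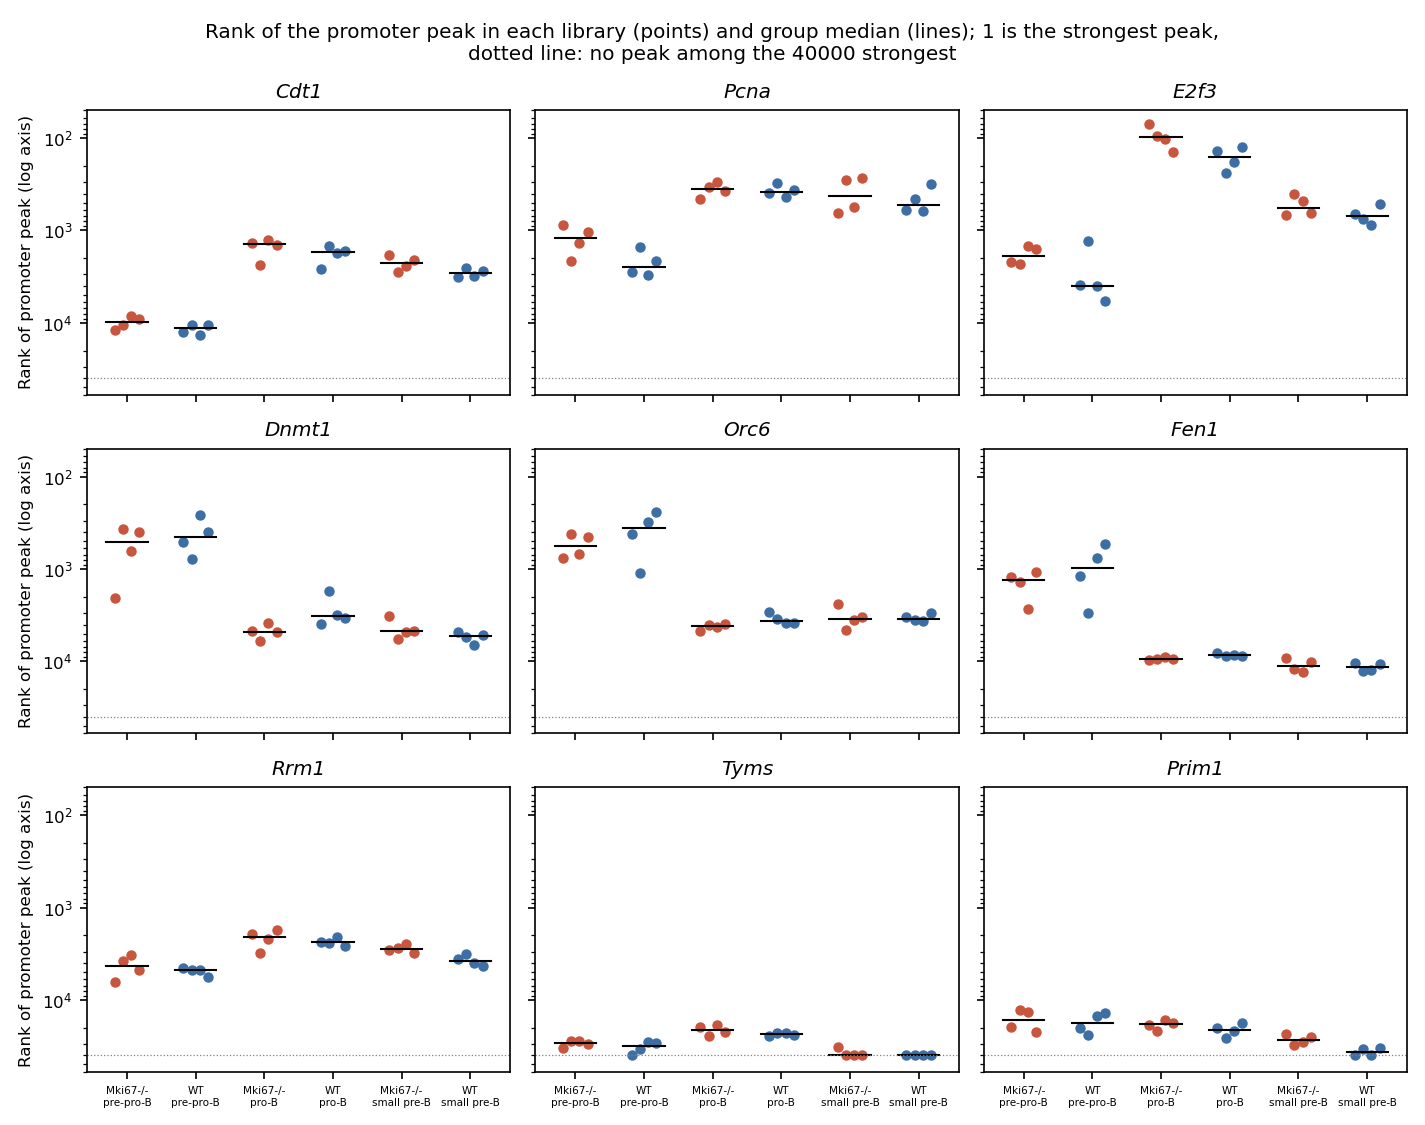
Rank of the promoter peak among the 40000 strongest peaks of each library by −log10 q (vertical axis, log scale, strongest at the top; the dotted line marks no peak), by stage, with Mki67-/- libraries in red to the left of WT libraries in blue, for Cdt1, Pcna, E2f3, Dnmt1, Orc6, Fen1, Rrm1, Tyms and Prim1. Points are libraries and lines are group medians. E2f3, Cdt1 and Pcna stand higher and Orc6, Dnmt1 and Fen1 lower at the 2 later stages, and Tyms reaches the dotted line in small pre-B libraries.

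Other genes of the pathway were compared by the same peak counts. Of 38 further replication factors, 5 had more and 9 fewer peaks at pro-B than at pre-pro-B, 4 more and 1 fewer at small pre-B than at pro-B, and 8 more and 6 fewer at small pre-B than at pre-pro-B. Over all genes the shares were 24.8% and 21.1%, 11.4% and 11.9%, and 24.2% and 21% in the same order, against which 4 of 38 and 9 of 38 lie near the background. Wdhd1, which links the helicase to polymerase alpha, averaged 4.625 peaks at pro-B and 2 at pre-pro-B. Dbf4, the activator of the Cdc7 kinase that starts origin firing, averaged 1 at pro-B and 3.125 at pre-pro-B, and the topoisomerase gene Top1 2 and 3.875. Rrm2b, the ribonucleotide reductase subunit used outside S phase, averaged 2.75 at small pre-B and 1 at pro-B, opposite in direction to its S-phase counterpart Rrm2.

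Of 28 further G1/S regulators, 9 had more and 2 fewer peaks at pro-B than at pre-pro-B, 3 more and 2 fewer at small pre-B than at pro-B, and 10 more and 1 fewer at small pre-B than at pre-pro-B. Against the same shares over all genes, 3 and 2 of 28 at small pre-B against pro-B lie near or below the background. The E2F partner Tfdp2 averaged 6.125 ± 0.641 peaks at pro-B and 1.25 ± 0.463 at pre-pro-B (n = 8 each, exact permutation, adjusted p = 0.00164). The G1 kinase gene Cdk6 averaged 13.5 ± 1.85 and 9 ± 1.41, and its cyclin Ccnd3 13.75 ± 1.49 and 11.125 ± 0.641. Cdkn1b, the inhibitor p27, averaged 3.875 at small pre-B and 3.125 at pro-B (adjusted p = 0.0439), and Cdk4 3.75 and 5. Neither list held a gene called by genotype across stages.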

How the data were processed

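ATAC-seq peak lists of 24 libraries were used, 4 in each of 6 groups taken from the labels. Per the submitters' processing notes, the authors worked on mm10 with Trimmomatic, MACS2, deepTools, DiffBind and DESeq2, with no versions. The 1 peak list per library deposited by the authors gives a score equal to 10 times the −log10 q, a fold enrichment (a ratio over the local background), and a −log10 p and −log10 q of each summit. Each list was called separately, and these deposited values served to order and describe the peaks of that list alone. Read totals were not used here. The background coverage is not a count of reads, and counting intervals are therefore left out.

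Overlapping or touching entries were merged per library. Genotypes were compared on the deposited lists, since equal lists would remove a global change, and stages on the 40000 peaks of highest −log10 q per library. Genes with a peak in at least 4 of the libraries compared were tested on the number of peaks with two-sided exact permutation tests, genotype permuted within stage and stage within genotype, and p-values were adjusted after Benjamini and Hochberg over all of them at a threshold of 0.05. The smallest p is 0.0286 for 4 against 4, 0.000408 for 8 against 8 and 5.83e-06 for 12 against 12 libraries. The tests were tested on simulated data. Regions were joined overlapping peaks, tested by the share of libraries with a peak. Promoter windows and sequences are those of RefSeq on GRCm38.p6.

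The genes, the lists and the alternatives were chosen with earlier results of these data known. Genes were named by rule: those called (the 10 of smallest p where more were), the 5 per direction nearest a genotype call, those without a gene-end peak in some library, and the 3 with the most and the fewest peaks. Alternatives were the 20000 strongest peaks, the deposited lists, other flanks and gene-end widths, covered length, a replicate block, 1 genotype, and libraries left out. Python 3.11.15 was used with numpy 2.4.6, pandas 2.3.3, scipy 1.17.1, numba 0.67.0 and matplotlib 3.10.9.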

Additional observations from a re-analysis of the deposited data

Results flagged for a closer look

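A sample that stood apart within its group of 4, or for promoter ranks within its stage, was looked for in 93 groups of values. In all 3 were found (3.23%), where chance gives about 1 in 20. The length covered by the 40000 strongest peaks over the 56 genes was 90960 bp in Mki67-/- pro-B 2, and 100666 to 102369 bp in the other Mki67-/- pro-B libraries. The promoter of Rfc4 stood at rank 4044 in WT small pre-B 2, ahead of the other WT small pre-B libraries. The promoter of Tyms stood at rank 32579 in Mki67-/- small pre-B 1 and was absent from the 40000 strongest peaks in the other Mki67-/- small pre-B libraries.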

How the results depend on the processing

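By genotype across stages, 0 genes were called by peak number under every setting tried, and 3 by length covered. Groups without overlap within a stage moved more. Within pro-B, members without overlap numbered 0 higher among the 40000 strongest peaks, and 0 higher and 1 lower with a −log10 q of at least 10; within small pre-B, 1 was higher among the 40000 strongest peaks. Leaving out 1 library in turn gave 0 to 1 higher, 0 to 1 lower and 177 to 469 genes in all within pre-pro-B (119 with all libraries), 1 to 2 higher, 0 to 2 lower and 295 to 437 genes within pro-B (219), and 0 to 1 higher and 336 to 467 genes within small pre-B (217). The number of genes moved by over 1.5 times without any 1 library except WT pre-pro-B 1 and WT pro-B 2, as groups of 3 overlap less by construction. The members came in without WT pre-pro-B 2 (1 lower), Mki67-/- pre-pro-B 4 (1 higher), WT pro-B 1, WT pro-B 4 and Mki67-/- pro-B 1 (1 lower each), Mki67-/- pro-B 3 (2 higher and 2 lower) and WT small pre-B 1 (1 higher).

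For the number of members called between stages, leaving out 1 library gave 18 to 21 higher and 5 to 6 lower at pro-B against pre-pro-B, 7 to 9 and 9 to 10 at small pre-B against pro-B, and 21 to 23 and 4 to 5 at small pre-B against pre-pro-B. The cause of the following moves was not tested. With 1 genotype alone the smallest exact permutation p is 0.0286, which passes adjustment only if most genes tested reach it. At pro-B against pre-pro-B, 6 members were higher among the 20000 strongest peaks, 11 were higher with no flank, 9 were lower with a 50 kb flank, and 6 were higher and 33 lower by length covered, with 12757 genes called. In WT or in Mki67-/- libraries alone it was 0 and 0, with 0 genes. Gene-end peaks gave 3 higher with 500 bp, and 10 higher and 1 lower with 2 kb. For small pre-B against pro-B, 2 were lower among the 20000 strongest, 2 were higher with no flank, 6215 genes were called with a 50 kb flank, and 18 were lower by length covered, with 6867 genes called. With WT or Mki67-/- libraries alone it was again 0 and 0, with 0 genes. Gene-end peaks gave 1 higher with 500 bp and 1 with 2 kb. For small pre-B against pre-pro-B, 11 were higher and 7 lower among the 20000 strongest, 12 and 14 in the deposited lists, 12 were higher with no flank, and 4 higher and 40 lower by length covered, with 13187 genes called; with 1 genotype alone it was 0 and 0, with 0 genes. Gene-end peaks gave 2 lower with 500 bp and 2 with 2 kb.

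The replicate numbers do not pair the libraries by the labels. In the deposited lists, deviations of same-numbered libraries of the 2 genotypes correlated at −0.366 to 0.133 (median 0.047), and 6 of 24 libraries correlated best with their own number; among the 40000 strongest peaks it was −0.16 to 0.094 and 10 of 24. With a replicate block, 15 members were higher and 4 lower at pro-B against pre-pro-B and 18 and 3 at small pre-B against pre-pro-B. Between small pre-B and pro-B the block left 0 and 0 members and 0 genes, for all peaks, for gene-end peaks and for other peaks, and for gene-end peaks it left 0 members and 0 genes in the other 2 comparisons too; its smallest p is 0.00781. By genotype across stages the block also left 0 genes.

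Regions called at pro-B against pre-pro-B numbered 17 higher among the 20000 strongest peaks and 35 lower where a peak had to cover a set share of the region (0.5); at small pre-B against pro-B it was 13 higher and 4 lower among the 20000 strongest, and at small pre-B against pre-pro-B 26 and 11, with 38 lower where that share had to be covered. The promoter rank by both rankings, its alternatives and the look at the same regions in the deposited lists were chosen after seeing the data. At pro-B against pre-pro-B, rank by −log10 q alone called 11 members higher and 14 lower, and rank by fold enrichment alone 10 and 11. Between small pre-B and pro-B, −log10 q alone called 6 higher and 19 lower (4750 promoters), fold alone 16 higher (4255 promoters), the 20000 strongest peaks 0 lower, and the replicate block 1 higher. Between small pre-B and pre-pro-B, −log10 q alone called 22 lower and fold alone 16 higher. By genotype, −log10 q alone called 1 member higher, Mcm10, and 167 promoters, fold alone 47, the 20000 strongest peaks 11, the replicate block 0, and leaving out any 1 stage 0. Without the 3 libraries that stood apart it was 2 promoters, and without 1 library 5 to 78 (20 with all), with the highest value without WT pre-pro-B 2 and the lowest without WT pre-pro-B 1 or WT small pre-B 1. Leaving out 1 library between stages gave 6 to 8 higher and 7 to 10 lower, 2 to 4 and 2 to 3, and 7 to 9 and 14.

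Single genes were followed for up to 10 called genes per direction and comparison, those of smallest p. For these genes, the difference in mean peaks changed sign as follows. At pro-B against pre-pro-B it was 0.125 for Cdc45, −0.5 for E2f1 and −0.375 for Dnmt1 among the 20000 strongest peaks, −0.5 for Fen1, −0.125 for Rpa1 and −1.375 for Dnmt1 in the deposited lists, 0.125 for Prim1 with a 50 kb flank, and −321.125 bp for E2f1 and −228.125 bp for Dnmt1 by length covered. Between small pre-B and pro-B it was −0.5 for Cdc6, 0.125 for Gins2, −0.125 for Pola1, 0.125 for Pole and 0.125 for Chaf1a among the 20000 strongest, −1.125 for Cdc6, −0.5 for Mcm2, −0.375 for Dut and 0.375 for E2f8 in the deposited lists, −3.625 for Mcm2, 0.75 for Gins2, 0.375 for Pole and −0.625 for Dut with a 50 kb flank, and −333.125 bp for Mcm7, 158.125 bp for Gins2, −56.375 bp for Pola1 and −294.375 bp for Pold1 by length covered. Between small pre-B and pre-pro-B it was −1.0 for Rpa1 among the 20000 strongest, −2.5 for Cdc6 in the deposited lists, 0.5 for Cdt1 with a 50 kb flank, and −396.625 bp for Cdc6, −786.75 bp for Mcm7, −236.25 bp for E2f1 and −63.0 bp for E2f2 by length covered. In the other alternatives for these genes 297 values kept direction and call and 223 lost the call. Some genes called higher at pro-B than at pre-pro-B were not followed there. Of these, Orc1, Cdc6, Lig1, Rrm2, Tk1, E2f2 and Chaf1a had a lower mean covered length at pro-B. In the deposited lists Cdc6, Lig1 and E2f8 averaged fewer peaks at pro-B than at pre-pro-B.

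Depth limits the deposited lists, since shallow libraries hold fewer weak peaks, and a peak count gives neither the strength nor the width of a site. Neighbouring genes lie in many windows, and a peak is counted for each gene whose window holds it.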
